A study of Mus musculus with 18 samples.

Results

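The cerebellum of ApoD transgenic mice was compared with that of wild-type mice after paraquat on 6 of the 18 arrays of the series, 3 of each genotype. The 6 arrays were taken by their titles, and nothing measured entered the choice. The series holds 3 genotypes, wild-type, ApoD knock-out and ApoD transgenic, each with and without paraquat, and asks how apolipoprotein D bears on the early transcriptional response to oxidative stress. All mice were male adults of 80 ± 5 days. The compared groups were injected with paraquat into the peritoneum, 30 mg/kg dissolved in 200 µl saline, and the cerebellum was removed 6 h later. The transgenic mice over-express ApoD in neurons, per the study's design text, and the label gives the transgene as human. The driving promoter and the number of founder lines are not given in the sources used here. Each group had 9 mice, pooled by 3, so that an array is a pool of 3 mice and p-values measure the spread between pools. The saline arrays are those whose titles name no paraquat.

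Apolipoprotein D is a small secreted lipocalin that binds lipids such as arachidonic acid and is made in the brain mainly by glia and by cells around blood vessels. Paraquat is a herbicide that cycles between redox states and yields superoxide. An acute toxic challenge also raises circulating glucocorticoids, whose receptor induces genes such as Fkbp5, Sgk1 and Cdkn1a within hours in neurons, glia and vessels.

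Every array had a median near 7.1 on the deposited log2 scale, except the second knock-out paraquat array at 6.98. Markers of granule neurons, the main cell type of the cerebellum, averaged 9.92 to 9.94 on the wild-type paraquat arrays and 9.94 to 10.01 on the transgenic ones, and Purkinje markers 10.60 to 10.64 and 10.60 to 10.69. Control probe sets differed between the genotypes. The 3′ minus 5′ difference of pyruvate carboxylase was 2.97 to 3.16 on the wild-type paraquat arrays and 1.95 to 2.88 on the transgenic ones, where the third array was the lowest. That of actin was 0.88 to 0.91 and 0.47 to 0.77, and the 3′ probe set of 18S ribosomal RNA read 8.32 to 9.16 and 7.55 to 8.37. The part of these differences in the results was not tested, and the main counts are given with and without the third transgenic arrays.

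Of 8320 genes tested, 1192 were lower in the transgenic than in wild-type under paraquat, which is 14.3%, and 386 were higher, which is 4.64% (limma, Benjamini-Hochberg adjusted p under 0.05). The differences were mostly small. The median log2 difference was -0.51 over the lower genes and 0.47 over the higher ones, against -0.06 over all genes tested. A change of over 2-fold was reached by 51 of the lower and 6 of the higher genes, or 0.613% and 0.0721% of those tested. The 3 values of each genotype did not overlap for 1171 of the 1192 lower and 371 of the 386 higher genes, where 27.5% of all genes lay wholly below and 14.4% wholly above wild-type. With any 1 of the 6 arrays left out 639 to 983 genes were lower, the fewest without the second wild-type array, and 177 to 392 higher, the fewest without the first. Without the third transgenic paraquat and saline arrays the counts were 997 lower and 444 higher. With the first transgenic array alone left in its group they were 506 and 198. In the fit that dropped the second knock-out paraquat array, which shares in the spread estimate only, 1944 were lower and 879 higher. Quantile normalisation moved the split to 1261 lower and 832 higher, the mean over a gene's probe sets to 965 and 531, and all probe sets taken singly to 1403 and 807.

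Apod itself read 12.54, 12.68 and 12.76 on the wild-type arrays and 12.13, 12.29 and 12.32 on the transgenic arrays. The transgenic values lay below all wild-type values, with a log2 difference of -0.41 (SE 0.13, adjusted p = 0.0398). The call did not survive the loss of any single array of the 6, and whether the mouse probe set reads the human transcript is not stated in the labels.

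Many of the most strongly lower genes, Lcn2 and Sgk3 first, were genes that paraquat raised in the knock-out, whose arrays are apart from those compared. Paraquat raised 66 genes there, which is 0.793% of those tested, and 49 of the 66 were lower in the transgenic under paraquat. That is 74.2% of the genes raised in the knock-out and 4.11% of the 1192 lower genes. Of the 66, 0 were higher in the transgenic. The fit shares 1 spread estimate per gene across comparisons, and with each comparison fitted on its own arrays 34 genes were raised in the knock-out, 27 of them lower in the transgenic (79.4%, where 16.9% of all genes were lower). Over the 49 genes the median log2 difference between transgenic and wild-type was -0.93 under paraquat and -0.06 under saline, and 2 of the 49 were also called lower under saline. With 1 knock-out array left out 34 to 108 genes were raised, the fewest without the second saline array and the most without the third paraquat array. After quantile normalisation 132 were raised, 80 of them lower in the transgenic. The plot of the knock-out response shows the 49 genes at the lower right.

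**Figure D1:**
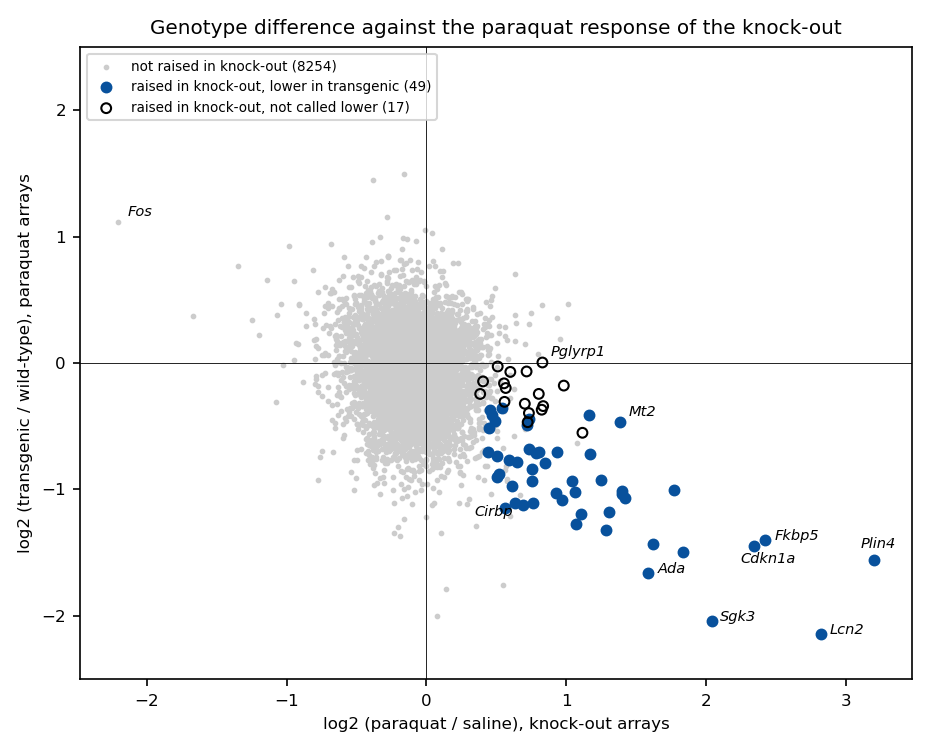
Log2 difference between transgenic and wild-type under paraquat (vertical) against the log2 paraquat effect in the knock-out (horizontal), 1 point per gene of 8320. The 49 filled points are genes raised in the knock-out and called lower in the transgenic, and the 17 open points are raised but not called lower; Lcn2, Sgk3, Plin4, Fkbp5 and Cdkn1a lie farthest to the lower right and Fos to the upper left.

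Lcn2, a lipocalin of the acute phase response that binds iron carriers of bacteria, read 6.39, 6.70 and 7.01 on the wild-type arrays and 4.85, 4.69 and 4.13 on the transgenic arrays. All transgenic values lay far below the wild-type ones and close to those under saline, which were 4.14 to 4.30 in wild-type and 4.0 to 4.37 in the transgenic. The log2 difference was -2.15 (SE 0.20, adjusted p = 1.77e-06), or 4.43-fold. Both the transgenic and the saline values lay well below the array medians near 7.1, where the smallest value of the series was 3.13. Lcn2 may have passed the filter on low values only through the arrays where it was high. Sgk3, a kinase of the serum and glucocorticoid regulated family, read 10.25, 10.11 and 10.12 on the wild-type arrays and 8.60, 8.12 and 7.65 on the transgenic arrays. The groups were well apart, by -2.04 (SE 0.17, adjusted p = 6.1e-07). Paraquat minus saline, from comparisons that share the arrays compared here, was 2.38 in wild-type and 0.67 in the transgenic for Sgk3, and 2.46 and 0.40 for Lcn2. The plot of leading genes by array shows both.

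**Figure D2:**
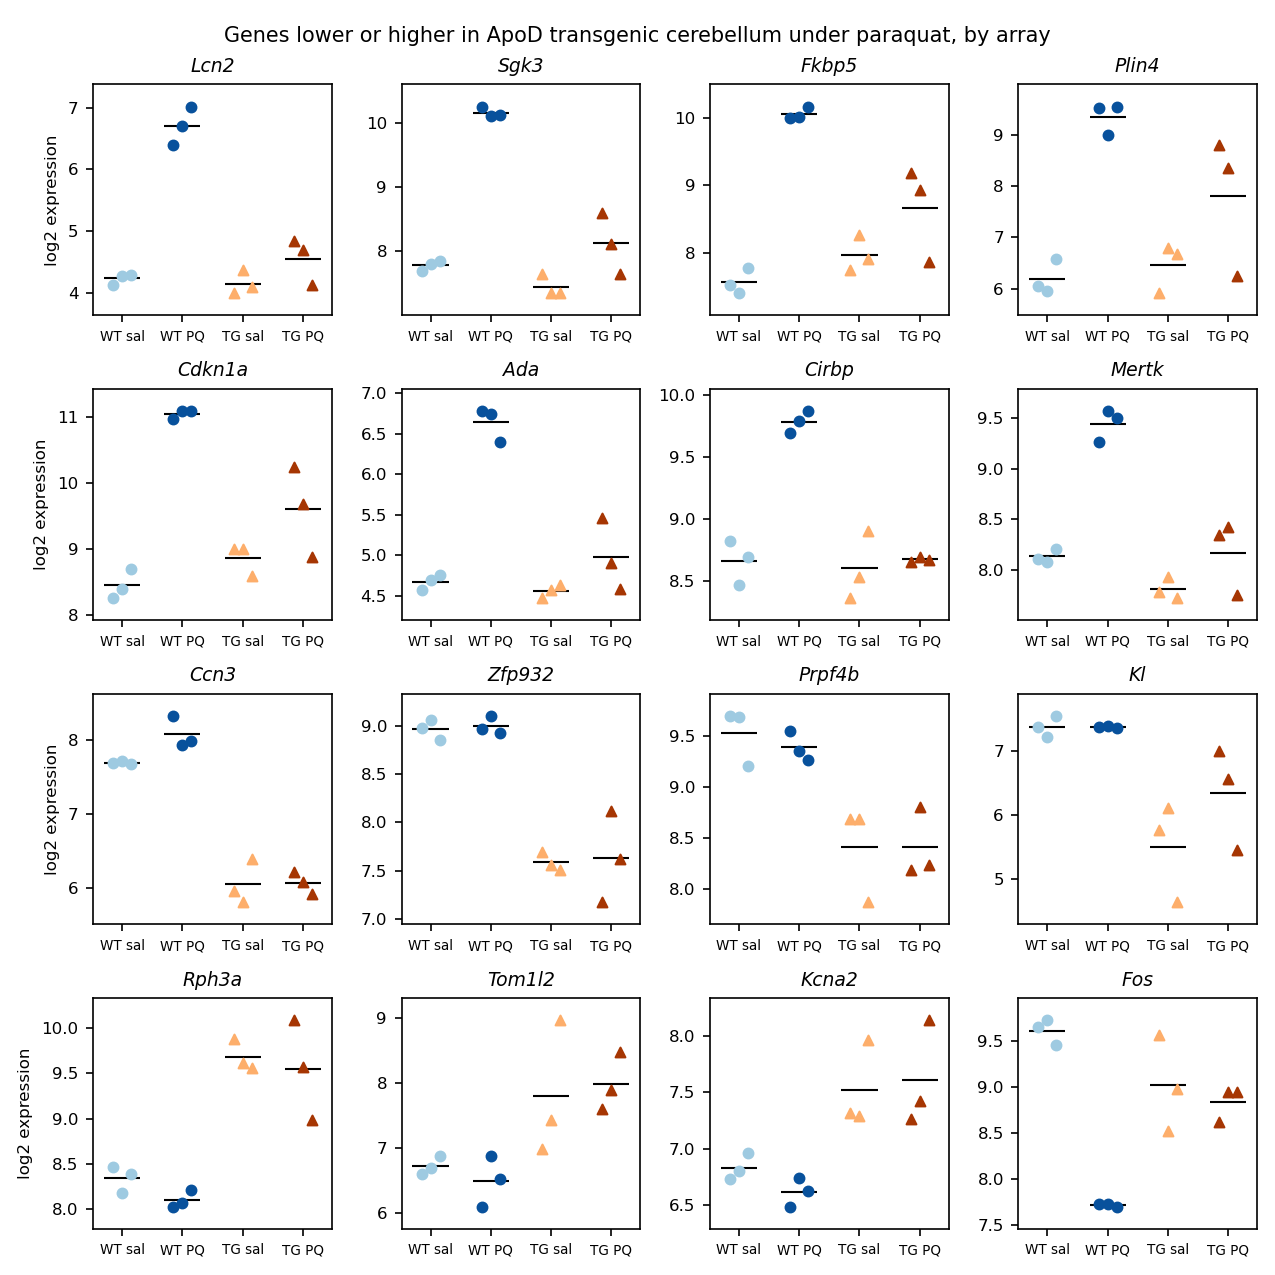
Log2 expression of 16 genes on the 12 wild-type (WT, circles) and transgenic (TG, triangles) arrays, saline (sal) and paraquat (PQ), with lines at group means. In the upper rows, from Lcn2 to Mertk, the wild-type paraquat arrays stand above the other groups, while Ccn3, Zfp932, Prpf4b and Kl are lower and Rph3a, Tom1l2 and Kcna2 higher in the transgenic under both treatments.

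Glucocorticoid response genes were the list with the largest share of lower members: 30 of 46 tested, or 65.2%, with 1 higher, against 14.3% and 4.64% of all genes. The list was written with earlier results of these data known, so its share is a description and carries no test. The median log2 difference of its members was -0.62 under paraquat and -0.01 under saline, where 0 were lower and 1 was higher. Of the 46, paraquat raised 23 in the knock-out. The list mean was 9.53 to 9.61 on the wild-type paraquat arrays and 9.12, 8.94 and 8.52 on transgenic arrays 1, 2 and 3, against 8.57 to 8.72 and 8.60 to 8.73 under saline. The third transgenic array thus read no higher than saline arrays, and the first and second lay between saline and wild-type paraquat. Without the third transgenic arrays 24 members were lower and with the first alone 12.

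Fkbp5, which binds the chaperone Hsp90 and lowers hormone binding by the glucocorticoid receptor, read 10.003, 10.01 and 10.17 on the wild-type arrays and 9.19, 8.93 and 7.86 on the transgenic arrays. The first and second transgenic values lay about 1 unit below wild-type and the third lay at the saline level, for a difference of -1.40 (SE 0.24, adjusted p = 0.000902). Cdkn1a, the cell cycle inhibitor p21, read 10.96, 11.08 and 11.08 on the wild-type arrays and 10.24, 9.68 and 8.88 on the transgenic arrays. The groups did not overlap, and the difference was -1.44 (SE 0.22, adjusted p = 0.000295). Sult1a1, a sulfotransferase of phenols, was lower, at -1.5 (adjusted p = 0.000192), and Mertk, a receptor tyrosine kinase used in the uptake of dying cells, at -1.27 (adjusted p = 1.31e-05). Sgk1, which controls ion channels and transporters, was lower, at -1.02 (adjusted p = 0.00715). Insulin, FoxO and mTOR genes, a list that also holds Sgk1 and Sgk3, had 6 of 34 lower and 3 higher (17.6% and 8.82%). Foxo1, a transcription factor restrained by insulin signalling, was lower, at -1.02 (adjusted p = 0.000144).

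Lipid droplet and fatty acid genes had 6 of 37 members lower and 0 higher, a share of 16.2%, near that of all genes, with a median of -0.23. Plin4, Angptl4, Pnpla2 and Pdk4, the 4 described here, are also members of the glucocorticoid list. Plin4, a lipid droplet coat protein, read 9.52, 9.01 and 9.55 on the wild-type arrays and 8.80, 8.36 and 6.26 on the transgenic arrays. All transgenic values lay below wild-type, but the third was 2 units below the others, and without it the difference was -0.78 with an adjusted p of 0.0515. With all arrays it was -1.56 (SE 0.42, adjusted p = 0.0145), and it also missed the threshold without the first wild-type array. Angptl4, an inhibitor of lipoprotein lipase, was lower, at -1.43 (adjusted p = 0.000192), and Pnpla2, the lipase that starts triglyceride breakdown, at -1.02 (adjusted p = 0.000161). Pdk4, the kinase that turns off pyruvate dehydrogenase, was lower, at -0.93 (adjusted p = 0.00929), but at -0.64 and not called without the third transgenic array (adjusted p = 0.0531). Genes of lipid transport had 5 of 26 lower and 1 higher (19.2% and 3.85%), Lcn2 and Apod among the 5. Abca1, the exporter of cholesterol to lipoproteins, was lower, at -0.90 (adjusted p = 0.000107), but at -0.19 over the mean of its probe sets, with an adjusted p of 0.371.

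Promoters of the 49 genes were searched for motifs chosen after the values were seen, since glucocorticoid targets led the list. RefSeq windows (GRCm38.p6, 250 bases before to 50 after the gene start) were held for 42 of them. The glucocorticoid response element, written GNACANNNTGTNC and searched on both strands, was found in 4, or 9.52%, against 29 of 6772 promoters of tested genes (0.43%) and 145 of 27025 promoters in the table (0.54%). Over all lower genes it was found in 8 of the 981 with a window (0.82%). The 4 windows are printed on the strand of the gene with the motif in capitals, since glucocorticoid targets led the lower genes. They are Txnip (chr3:96557707-96558006, plus strand), Map3k6 (chr4:133240568-133240867, plus strand), Sgk1 (chr10:21993640-21993939, plus strand) and Gnmt (chr17:46729116-46729415, minus strand).
Txnip: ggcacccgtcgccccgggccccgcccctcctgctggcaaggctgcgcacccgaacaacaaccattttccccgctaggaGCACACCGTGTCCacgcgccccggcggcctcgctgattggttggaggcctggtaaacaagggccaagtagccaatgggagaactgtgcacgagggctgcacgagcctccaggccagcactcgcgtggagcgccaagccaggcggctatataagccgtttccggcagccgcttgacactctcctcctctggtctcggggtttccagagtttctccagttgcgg
Map3k6: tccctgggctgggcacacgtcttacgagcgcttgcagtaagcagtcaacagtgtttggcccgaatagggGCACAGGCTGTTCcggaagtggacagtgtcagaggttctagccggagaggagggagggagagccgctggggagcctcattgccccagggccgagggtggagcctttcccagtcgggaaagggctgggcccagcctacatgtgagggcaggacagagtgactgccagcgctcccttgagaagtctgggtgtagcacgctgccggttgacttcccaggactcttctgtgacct
Sgk1: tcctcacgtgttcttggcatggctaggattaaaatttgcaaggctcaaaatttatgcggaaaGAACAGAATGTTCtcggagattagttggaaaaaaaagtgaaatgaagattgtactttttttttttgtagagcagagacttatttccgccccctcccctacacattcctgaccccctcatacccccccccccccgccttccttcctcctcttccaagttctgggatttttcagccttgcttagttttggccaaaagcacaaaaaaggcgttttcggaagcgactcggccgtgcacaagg
Gnmt: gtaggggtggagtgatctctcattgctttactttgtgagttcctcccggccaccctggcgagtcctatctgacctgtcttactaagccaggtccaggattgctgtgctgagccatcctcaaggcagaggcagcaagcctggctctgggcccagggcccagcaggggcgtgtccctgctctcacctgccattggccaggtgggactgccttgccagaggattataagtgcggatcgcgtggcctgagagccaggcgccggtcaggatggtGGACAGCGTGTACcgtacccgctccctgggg
The motif began 172 bases before the gene start in Txnip, 181 in Map3k6 and 188 in Sgk1, and at base 20 after it in Gnmt. A forkhead motif, TGTTTAC, was found in 2 of the 42 (4.76%, against 3.04% of tested genes and 4.05% of all promoters held). A cyclic AMP response element, TGACGTCA, was found in 3 (7.14%, against 3.6% and 2.03%), and an E-box, CACGTG, in 8 (19.05%, against 12.4% and 8.09%). A match is a run of letters in this window and says nothing of binding.

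Txnip, which binds and inhibits the reducing protein thioredoxin, read 10.08, 10.17 and 10.19 on the wild-type arrays and 9.14, 9.03 and 8.30 on the transgenic arrays. The transgenic arrays lay at least 0.9 below wild-type, at -1.32 on average (SE 0.17, adjusted p = 8.63e-05). Map3k6, a stress-activated kinase, was lower, at -1.0 (adjusted p = 0.00549), and Gnmt, a methyltransferase that consumes S-adenosylmethionine, at -0.71 (adjusted p = 0.00508). Paraquat raised Map3k6 by 1.77 and Gnmt by 0.79 in the knock-out. Gnmt was chosen after its values were seen, for its motif.

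Not every gene that paraquat raised was lower. Of the 17 raised in the knock-out and not called lower, Mt1, a metallothionein that binds zinc, differed by -0.34 (adjusted p = 0.0603), and Tsc22d3, the glucocorticoid-induced leucine zipper, by -0.55 (adjusted p = 0.0591). Serpina3n, an acute phase protease inhibitor of astrocytes, differed by -0.07 (adjusted p = 0.76), and Pglyrp1, a peptidoglycan receptor, by 0.0 (adjusted p = 0.989). These 4 were chosen after their values were seen. Mt2, the second widespread metallothionein, was called at -0.47 (adjusted p = 0.049), close to the threshold and lost without either the first or the third transgenic array or any 1 of the wild-type arrays.

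Genes of the amino acid response, which the factor ATF4 drives when amino acids are short or protein folding fails, had 10 of 26 members lower and 0 higher (38.5%), with a median of -0.24 under paraquat and -0.16 under saline. Ddit4, an inhibitor of the growth kinase mTORC1 and also a glucocorticoid target, read 10.39, 10.62 and 10.44 on the wild-type arrays and 8.51, 8.24 and 9.43 on the transgenic arrays. The third transgenic array was the highest of its group and still lay below wild-type, for a difference of -1.76 (SE 0.33, adjusted p = 0.00142). Slc7a3, a carrier of arginine and lysine, was lower, at -1.11 (adjusted p = 5.6e-05), and Chac1, an enzyme that degrades glutathione, at -0.93 (adjusted p = 0.000389). Nupr1, a stress-induced nuclear protein, was lower, at -0.75 (adjusted p = 0.00103). Without the third transgenic arrays 7 of the 26 were lower.

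Targets of p53 had 8 of 22 members lower and 0 higher (36.4%), with a median of -0.16. Beside Cdkn1a these include Trp53inp1, a stress-induced partner of p53, which read 9.57, 9.73 and 9.61 on the wild-type arrays and 8.74, 8.57 and 7.95 on the transgenic arrays. No values overlapped, and the difference was -1.21 (SE 0.18, adjusted p = 0.000302). Ccng1, a cyclin that p53 induces, was lower, at -0.97 under paraquat (adjusted p = 0.000184) and at -0.60 under saline (adjusted p = 0.0143). Rrm2b, the ribonucleotide reductase subunit used in DNA repair, was lower, at -0.95 and -0.72 (adjusted p = 0.000902 and 0.0147). The count was 8 without the third transgenic arrays. The broader list of cell cycle and DNA repair genes had 22 of 120 lower and 4 higher (18.3% and 3.33%), among them Cdkn1b, the inhibitor p27, at -0.90 (adjusted p = 0.00357).

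Of 16 inflammation and acute phase genes 5 were lower and 2 higher (31.25% and 12.5%, against 14.3% and 4.64% of all genes). Beside Lcn2 the lower ones include Lrg1, a secreted acute phase glycoprotein, at -1.07 (adjusted p = 0.000389), Nrros, which restrains reactive oxygen production in myeloid cells, at -0.93 (adjusted p = 0.00121), and Cebpb, a transcription factor of the acute phase, at -0.82 (adjusted p = 0.00322). Gfap, the filament protein of astrocytes, was higher, and read 9.93, 9.96 and 10.42 on the wild-type arrays and 10.93, 10.49 and 10.76 on the transgenic arrays. The groups were apart by 0.62 (SE 0.16, adjusted p = 0.00952), and the call was lost without the first or the second wild-type array. Interferon response and MHC class I genes had 2 of 19 lower and 0 higher.

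The lists named for oxidative damage and protein folding were close to or below the background. Antioxidant enzymes and NRF2 targets had 5 of 42 lower and 1 higher (11.9% and 2.38%), cytosolic heat shock proteins 4 of 35 and 0 (11.4%), and endoplasmic reticulum folding genes 4 of 33 and 2 (12.1% and 6.06%). Gpx8, a glutathione peroxidase of the endoplasmic reticulum, was lower, at -0.70 (adjusted p = 0.00248), and Nqo1, a quinone reductase and NRF2 target, at -0.41 (adjusted p = 0.00894). Mt3, the metallothionein of the brain, read 11.33, 11.07 and 11.28 on the wild-type arrays and 12.40, 11.82 and 11.89 on the transgenic arrays. It was higher on all transgenic arrays, by 0.81 under paraquat (SE 0.16, adjusted p = 0.00187) and at 0.76 under saline (adjusted p = 0.00907). Of 18 circadian clock genes 4 were lower and 0 higher (22.2% lower). Cirbp, a cold-inducible RNA-binding protein, read 9.70, 9.79 and 9.87 on the wild-type arrays and 8.66, 8.70 and 8.67 on the transgenic arrays. The transgenic arrays were tightly grouped at the saline level, with a difference of -1.11 (SE 0.14, adjusted p = 6.23e-05). Dbp, a clock output factor, was lower, at -0.66 (adjusted p = 0.0309), a call lost without the first or the second wild-type or the second or the third transgenic array and over the mean of its probe sets.

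Splicing factors and nuclear RNA-binding proteins held more lower genes than any other list. Of 178 tested 47 were lower and 3 higher (26.4% and 1.69%), with a median of -0.21, and 26 were lower and 2 higher under saline, with a median of -0.16. The list mean was 9.34 to 9.38 on the wild-type paraquat arrays and 9.10 to 9.24 on the transgenic ones. Prpf4b, a kinase of the spliceosome, read 9.56, 9.36 and 9.27 on the wild-type arrays and 8.18, 8.81 and 8.23 on the transgenic arrays. Every transgenic value lay below every wild-type value, by -0.98 (SE 0.21, adjusted p = 0.00347), but the mean over its probe sets gave -0.37 (adjusted p = 0.0926). Pspc1, a core protein of nuclear paraspeckles, was lower, at -0.91 (adjusted p = 0.000963), and Prpf39, a factor of the U1 particle, at -0.85 (adjusted p = 0.0112). The call for Prpf39 was lost without the first transgenic array and over the mean of its probe sets, at -0.34 (adjusted p = 0.172). Tardbp, an RNA-binding protein linked to motor neuron disease, was lower, at -0.81 (adjusted p = 0.00107), but at -0.29 over the mean of its probe sets (adjusted p = 0.195). With quantile normalisation 43 members were lower and 13 higher, and without the third transgenic arrays 35 and 9.

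Nucleolar and ribosome biogenesis factors, a family gathered after the values were seen, had 28 of 93 lower and 4 higher (30.1% and 4.3%), with a median of -0.19. Under saline 15 were lower and 1 higher. Examples chosen after seeing the values are Esf1, a factor of small subunit processing, at -0.90 (adjusted p = 0.00379), and Nop58, a core protein of box C/D particles that guide RNA methylation, at -0.78 (adjusted p = 0.00184). Of 6 tested host genes of small nucleolar RNAs, gathered in the same way, 3 were lower and 0 higher. Snhg1 read 9.67, 9.44 and 9.16 on the wild-type arrays and 8.01, 8.31 and 8.09 on the transgenic arrays. The transgenic arrays lay at least 0.85 below wild-type, at -1.29 on average (SE 0.15, adjusted p = 3.86e-05), and all 4 other probe sets of the gene had the same sign.

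Of 74 mitochondrial ribosomal proteins, which translate the few proteins encoded by the organelle, 19 were lower and 0 higher (25.7%), with a median of -0.15 under paraquat and -0.03 under saline, where 3 were lower. The wild-type paraquat list means were 9.37, 9.28 and 9.23 and the transgenic ones 9.16, 9.10 and 9.10. Mrps9, of the small subunit, read 8.79, 8.68 and 8.40 on the wild-type arrays and 8.09, 8.22 and 7.69 on the transgenic arrays. Its groups did not overlap and differed by -0.62 (SE 0.14, adjusted p = 0.00503). Mrpl1, of the large subunit, was lower, at -0.57 (adjusted p = 0.00539). Cytosolic ribosomal proteins had 4 of 45 lower (8.89%) and respiratory chain subunits 7 of 89 (7.87%), both with 0 higher and both below the background. With the first transgenic array alone, 7 of the 74 mitochondrial ribosomal proteins were lower.

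Of 46 proteasome subunits and factors 10 were lower and 2 higher (21.7% and 4.35%). Psma6, of the catalytic core, was lower, at -0.52 (adjusted p = 0.00307), and Psme4, a proteasome activator, at -0.51 (adjusted p = 0.0145), a call lost over the mean of its probe sets and without the first or the second wild-type or the first transgenic array. Ubiquitin ligases, conjugating enzymes and deubiquitinases had 30 of 209 lower and 6 higher (14.4% and 2.87%), the same share as all genes. Usp16, which removes ubiquitin from histones, was lower, at -0.73 (adjusted p = 0.00142), and Usp22, which does so in a coactivator complex, was higher by 0.81 (adjusted p = 0.0159), a call lost without the first wild-type or the second or the third transgenic array.

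Zinc finger genes named Zfp, many of them repressors with a KRAB domain, had 25 of 121 lower and 6 higher (20.7% and 4.96%). Zfp932 read 8.97, 9.11 and 8.93 on the wild-type arrays and 7.17, 8.11 and 7.62 on the transgenic arrays. All transgenic values were below 8.2 and all wild-type values above 8.9, with a difference of -1.37 under paraquat (SE 0.16, adjusted p = 3.76e-05) and -1.38 under saline (adjusted p = 9.63e-05). Zfp810 was lower, at -1.11 (adjusted p = 5.04e-05), and Zfp36, a protein that destabilises cytokine mRNAs, at -0.93 (adjusted p = 0.000352). Histone modifying enzymes and remodellers had 9 of 62 lower and 3 higher (14.5% and 4.84%), near the background. Kdm3a, a histone demethylase induced in hypoxia, read 9.33, 9.48 and 9.30 on the wild-type arrays and 8.34, 8.41 and 8.04 on the transgenic arrays. The transgenic arrays were lower throughout, by -1.10 (SE 0.13, adjusted p = 2.94e-05). Prmt1, the main arginine methyltransferase, was lower, at -0.97 (adjusted p = 0.0424), but the third transgenic array, at 9.47, lay close to the wild-type ones, and the call was lost without the first or the second transgenic array or any 1 of the wild-type arrays. Of 96 RNA polymerase subunits, general factors and mediator subunits 15 were lower and 0 higher (15.6%), led by Polr3e, a subunit of RNA polymerase III, at -1.19 (adjusted p = 1.31e-05).

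Genes of translation, transport into the nucleus and mitochondrial upkeep lay close to the background. Translation factors and tRNA synthetases had 12 of 86 lower and 2 higher, nuclear pore and transport genes 9 of 61 and 2, and genes of mitochondrial import, dynamics and carriers 10 of 85 and 3. Eif2ak4, the kinase GCN2 that senses uncharged tRNA, was lower, at -0.68 (adjusted p = 0.0146), a call lost without the second wild-type array, and Rars, the arginine tRNA synthetase, at -0.60 (adjusted p = 0.00141). Nup98, a component of the nuclear pore, was lower, at -0.57 (adjusted p = 0.011), a call lost without the second wild-type or the first transgenic array. Yme1l1, a protease of the inner mitochondrial membrane, read 8.53, 8.56 and 8.40 on the wild-type arrays and 7.70, 7.47 and 7.47 on the transgenic arrays. The transgenic arrays were lower than wild-type in each case, by a difference of -0.95 (SE 0.20, adjusted p = 0.00312). Genes of glycolysis and the citrate cycle had 3 of 44 lower and 2 higher, among them Dld, a subunit of pyruvate dehydrogenase, at -0.63 (adjusted p = 0.00266). Genes of cholesterol synthesis had 3 of 29 lower and 2 higher, with Lss, lanosterol synthase, at -1.0 (adjusted p = 0.000866), but at -0.25 over the mean of its probe sets (adjusted p = 0.0987).

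Chromatin regulators had 8 of 58 lower and 2 higher. Over the mean of probe sets these were 2 and 5 of 57, and without the third transgenic arrays 3 and 3 of 58. Ezh2, the methyltransferase of Polycomb repression, was lower, at -0.61 (adjusted p = 0.00201). Autophagy and apoptosis genes had 6 of 43 lower and 3 higher, but 2 and 3 of 38 over the mean of probe sets. Bid, a protein that carries death receptor signals to mitochondria, was lower, at -0.80 (adjusted p = 0.00347), and Tfeb, the transcription factor of lysosome genes, was called at 0.52 (adjusted p = 0.0436). The call for Tfeb was lost without any 1 of the 6 arrays, after quantile normalisation and after median centring. Lysosomal genes had 7 of 57 lower and 0 higher, with Ctsh, a cathepsin, at -0.46 (adjusted p = 0.00721). Cytoskeleton and motor genes split into 11 lower and 9 higher of 139. Clasp2, which stabilises microtubule ends, was lower, at -0.96 (adjusted p = 0.00466), while Mapre3, which binds growing microtubule ends, was higher by 0.84 (adjusted p = 0.0123). Over the mean of its probe sets Clasp2 was at -0.32 and not called (adjusted p = 0.189), and the call for Mapre3 was lost without the first wild-type or the second transgenic array.

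Cilium and centrosome genes, also gathered after the values were seen, had 18 of 54 lower and 2 higher (33.3% and 3.7%), and 14 lower and 2 higher under saline. Rpgr, a protein of the ciliary transition zone, was lower, at -1.02 (adjusted p = 0.00359), and Ift74, of the intraflagellar transport complex, at -0.96 (adjusted p = 0.000902), both named after their values were seen. The larger families of membrane and signalling proteins lay near or below the background, as the plot of called shares by list shows. Vesicle traffic and coat proteins had 35 of 235 lower and 5 higher, solute carriers 24 of 168 and 10 (14.3% and 5.95%), protein kinases 16 of 126 and 4 (9 and 13 over the mean of probe sets), and G protein coupled receptors with their partners 4 of 104 and 7 (3.85% and 6.73%). Stx3, a syntaxin of membrane fusion, was lower, at -1.02 (adjusted p = 2.94e-05), and Ptpn22, a phosphatase of immune receptor signalling, at -1.05 (adjusted p = 0.000975).

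**Figure D3:**
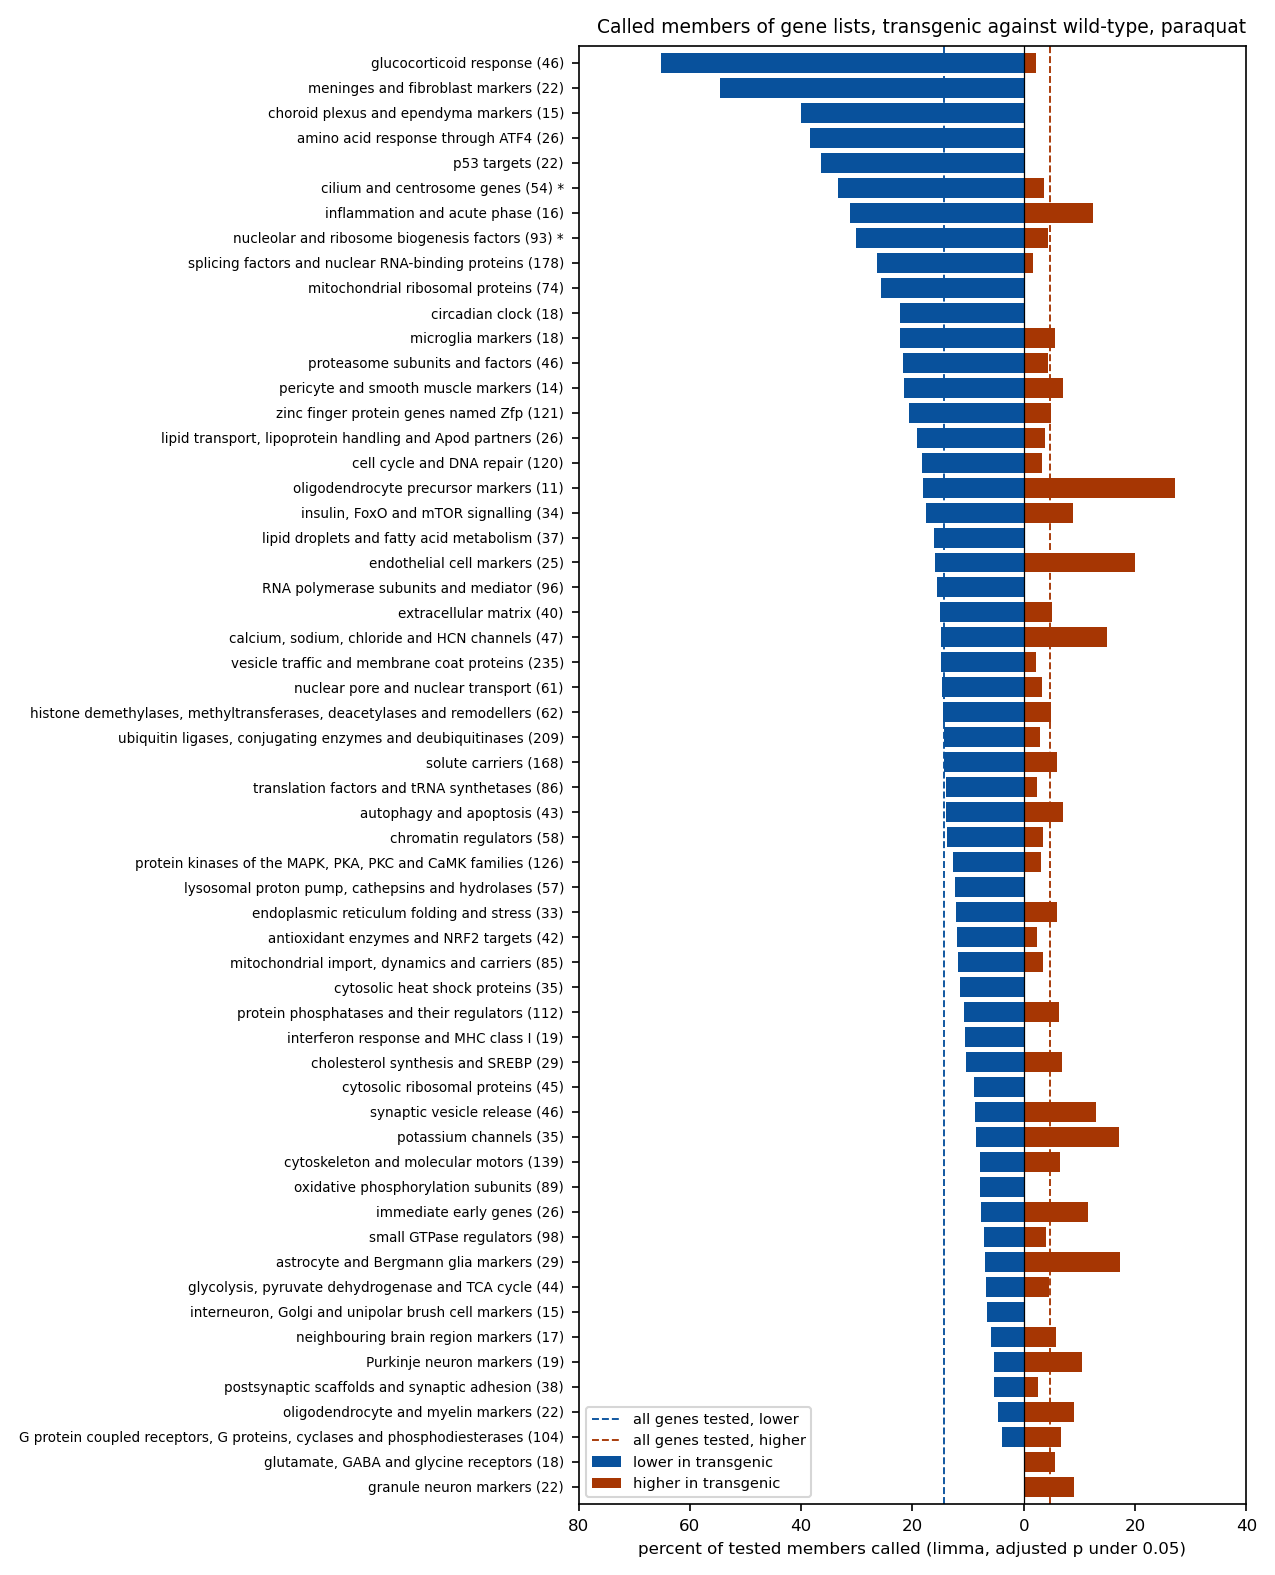
Percent of the tested members of each list called lower (blue, to the left) or higher (orange-brown, to the right) in the transgenic under paraquat, for lists with at least 10 tested members, whose number is in brackets; an asterisk marks families gathered after the values were seen. Dashed lines give the shares over all genes, 14.3% and 4.64%; the glucocorticoid list reaches 65.2% lower, and granule neuron markers have 0 lower.

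Markers of the coverings of the brain and of the choroid plexus were lower in the transgenic under both treatments. Of 22 meninges and fibroblast markers 12 were lower and 0 higher (54.5%), with a median of -0.48, and 9 were lower under saline. Apod itself is among the 12. Of 15 choroid plexus and ependyma markers 6 were lower and 0 higher, with a median of -0.55, and 10 were lower under saline, with a median of -0.79. Less RNA per cell and fewer cells of a type cannot be told apart in such bulk tissue. The choroid plexus list mean was 8.02 to 8.16 on the wild-type paraquat arrays and 7.82, 7.63 and 7.22 on transgenic arrays 1, 2 and 3. The meninges mean was 8.17 to 8.32 and 7.93, 7.74 and 7.67, so that in both lists the third transgenic array was the lowest, as the plot of list means shows. Without the third transgenic arrays 9 of the 22 and 3 of the 15 were lower.

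Slc6a20a, a proline carrier, read 8.99, 8.83 and 8.74 on the wild-type arrays and 7.73, 7.58 and 7.21 on the transgenic arrays. The groups differed by -1.34 (SE 0.15, adjusted p = 1.31e-05), with no overlap. Calml4, a calmodulin-like protein of brush borders, was lower, at -1.23 (adjusted p = 0.000391) and at -1.69 under saline. Ecrg4, a secreted precursor made by the choroid plexus and in no list here, was lower, at -1.21 (adjusted p = 0.00309) and at -1.86 under saline (adjusted p = 0.000491). Kl, the anti-ageing protein Klotho, read 7.38, 7.39 and 7.36 on the wild-type arrays and 7.0, 6.57 and 5.45 on the transgenic arrays. The wild-type values were nearly equal and the transgenic ones spread over 1.5 units below them, with a difference of -1.04 (SE 0.34, adjusted p = 0.0392) that was not called when any 1 array except the first transgenic one was left out. Ttr, the thyroid hormone carrier that the choroid plexus makes in bulk, read 14.44, 14.37 and 14.38 on the wild-type arrays and 14.18, 14.02 and 13.45 on the transgenic arrays, a difference of -0.51 (SE 0.29) that was not called (adjusted p = 0.216); it was chosen after its values were seen. Lum, a collagen-binding proteoglycan of fibroblasts, was lower, at -0.84 (adjusted p = 0.000527), and Ogn, of the same family, at -0.76 (adjusted p = 0.00124). The part that the amount of these tissues had in other differences was not tested.

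**Figure D4:**
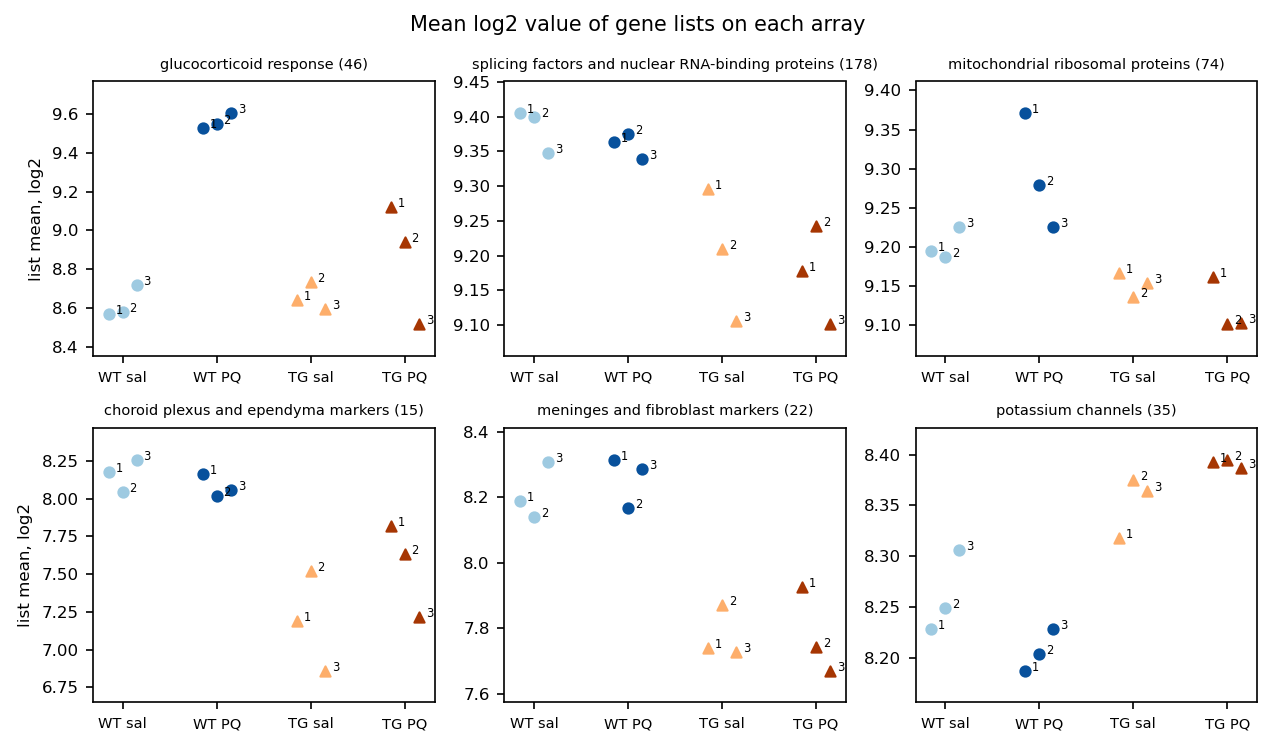
Mean log2 value of 6 gene lists on each wild-type (WT) and transgenic (TG) array under saline (sal) and paraquat (PQ), with the replicate number beside each point and the number of tested genes in brackets. The glucocorticoid list is high on the wild-type paraquat arrays, 9.53 to 9.61, and the choroid plexus and meninges lists are low on all transgenic arrays. The potassium channel list is higher on the transgenic than on the wild-type arrays under both treatments.

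Markers of neurons, astrocytes and oligodendrocytes had smaller shares of lower genes than the 14.3% of all genes. Except for interneuron markers, their shares of higher genes were above the 4.64% of all genes. Granule neuron markers had 0 of 22 lower and 2 higher, Purkinje markers 1 of 19 and 2, interneuron markers 1 of 15 and 0, astrocyte and Bergmann glia markers 2 of 29 and 5, and oligodendrocyte markers 1 of 22 and 2. Pcp4, a calmodulin-binding protein of Purkinje cells, was lower, at -0.35 (adjusted p = 0.0182), a call lost without the first wild-type or the first transgenic array, and Slc1a3, the glutamate transporter of Bergmann glia, was higher by 0.51 (adjusted p = 0.0357). Without the first transgenic array the call for Slc1a3 held, and without any other of the 6 it was lost; without the third transgenic array the difference was 0.33, and over the mean of its probe sets it was 0.08. Oligodendrocyte precursor markers had 2 of 11 lower and 3 higher (18.2% and 27.3%). Sox10, the transcription factor of the lineage, was among the latter, at 0.80 (adjusted p = 0.000288). Microglia markers had 4 of 18 lower and 1 higher (22.2% and 5.56%), led by the immunoglobulin receptor Fcgr3 at -0.61 (adjusted p = 0.000902). Endothelial markers split into 4 lower and 5 higher of 25. Slc2a1, the glucose transporter of the blood-brain barrier, was lower, at -0.84 (adjusted p = 0.00411), and Abcb1a, its drug efflux pump, at -0.75 (adjusted p = 0.00528). Sox18, an endothelial transcription factor, was higher by 0.82 (adjusted p = 0.00121), and the chemokine Cxcl12 by 0.77 (adjusted p = 0.00185). Over the mean of its probe sets Cxcl12 was at 0.27 (adjusted p = 0.116).

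Pericyte and smooth muscle markers had 3 of 14 lower and 1 higher (21.4% and 7.14%), and leukocyte markers 2 of 9 and 0 (22.2% lower). Erythrocyte markers had 0 of 3 lower and 0 higher, and markers of neighbouring brain regions 1 of 17 and 1 (5.88% each). H2-Aa, an MHC class II chain of leukocytes, was lower, at -0.69 (adjusted p = 0.00763), and Ddc, the decarboxylase of dopamine and serotonin neurons, at -0.85 (adjusted p = 0.00107). Extracellular matrix genes, a list that shares Lum and Ogn with the meninges list, had 6 of 40 lower and 2 higher. Tnc, a matrix protein of glia, was higher by 0.73 (adjusted p = 0.000902), and Mgp, an inhibitor of calcification made by vessels and meninges, was lower, at -0.75 (adjusted p = 0.000687).

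Of the 51 genes lower by over 2-fold 15 are in no list, among them Ccn3, Amy1, Ecrg4 and Phldb2, which were lower under saline as well. Ccn3, a matricellular growth regulator, read 8.33, 7.93 and 7.99 on the wild-type arrays and 6.23, 6.09 and 5.92 on the transgenic arrays. The transgenic arrays lay more than 1.6 below wild-type, at -2.0 on average (SE 0.16, adjusted p = 6.1e-07), and at -1.64 under saline (adjusted p = 2.88e-05). Amy1, salivary amylase, read 8.21, 8.36 and 8.16 on the wild-type arrays and 6.15, 6.95 and 6.28 on the transgenic arrays. Its groups were apart by -1.79 (SE 0.20, adjusted p = 2.29e-05), and at -1.09 under saline (adjusted p = 0.00516). Eif2s3y, the translation factor gene on the Y chromosome, was lower, at -1.29 (adjusted p = 0.00233), and at -1.12 under saline (adjusted p = 0.015). Phldb2, an anchor of microtubules at the cell cortex and in no list, was lower, at -1.35 (adjusted p = 0.000282), and at -0.88 under saline (adjusted p = 0.0148).

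Potassium channels and synaptic vesicle genes had a larger share of higher members than all genes, as did several other lists. Oligodendrocyte precursor markers (3 of 11, or 27.3%) and endothelial markers (5 of 25) had a larger share than potassium channels. The share of astrocyte and Bergmann glia markers (5 of 29) was about that of potassium channels. Potassium channels had 6 of 35 higher and 3 lower (17.1% and 8.57%), with a median of 0.19, against 4.64% and 14.3% of all genes. Under saline 4 were higher and 1 lower, with a median of 0.16, where 1.98% and 4.38% of all genes were. Kcna2, a channel of axons and synaptic terminals, read 6.49, 6.74 and 6.62 on the wild-type arrays and 7.27, 7.42 and 8.14 on the transgenic arrays. All transgenic values were higher, by 0.99 (SE 0.18, adjusted p = 0.00142) and at 0.69 under saline (adjusted p = 0.031). Kcna6, of the same family, was higher by 1.0 (adjusted p = 0.00319). Calcium, sodium and related channels had 7 of 47 higher and 7 lower. Synaptic vesicle genes had a smaller share of higher members, 6 of 46, with 4 lower. Receptors of glutamate, GABA and glycine had 0 of 18 lower and 1 higher, and postsynaptic scaffold and adhesion genes 2 of 38 and 1. Cntn2, an adhesion protein of granule cell axons, was higher by 0.76 (adjusted p = 0.00894). Rph3a, an effector of Rab proteins on synaptic vesicles, read 8.03, 8.07 and 8.21 on the wild-type arrays and 10.09, 9.57 and 8.98 on the transgenic arrays. The groups did not overlap, with 1.45 under paraquat (SE 0.19, adjusted p = 8.84e-05), 2.72-fold, and 1.34 under saline (adjusted p = 0.000673). Tom1l2, an adaptor of endosomal sorting, had the largest difference of the higher genes, 1.5 (SE 0.33, adjusted p = 0.00436). Syt1, the calcium sensor of vesicle release, was called at 0.98 (adjusted p = 0.0206), but its groups overlapped and the call was lost without the first or the third wild-type or the third transgenic array. Kif5a, a motor of axonal transport, was higher by 1.05 (adjusted p = 0.0184), also lost without any 1 of those 3 arrays.

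Of the 122 genes that paraquat lowered in the knock-out, which is 1.47% of those tested, 23 were higher in the transgenic (18.9% of the 122 and 5.96% of the 386 higher genes), and 3 were lower. The number lowered there was 10 with the comparison fitted on its own arrays, 54 without the second knock-out paraquat array and 29 to 506 with another knock-out array left out, the fewest without the second saline and the most without the third paraquat array. The overlap was not recomputed in these fits. Fos, an immediate early gene of neuronal activity, read 7.74, 7.73 and 7.70 on the wild-type arrays and 8.62, 8.95 and 8.95 on the transgenic arrays. The wild-type arrays lay within 0.04 of each other and all transgenic ones above 8.6, with a difference of 1.12 (SE 0.26, adjusted p = 0.00549). Under saline Fos read 9.45 to 9.72 in wild-type and 8.53 to 9.57 in the transgenic, and the paraquat effect in the knock-out was -2.21 (adjusted p = 3.22e-05). Nr4a1, a nuclear receptor of the same early class, was higher by 0.47 (adjusted p = 0.0192), a call lost without the first or the third wild-type or the third transgenic array. Of the 26 immediate early genes tested 3 were higher and 2 lower, the latter being Gadd45g and Gadd45b, growth arrest genes, at -1.13 and -0.78 (adjusted p = 1.45e-06 and 0.000235). Erbb3, a neuregulin receptor of glia, was higher by 0.93 (adjusted p = 0.00858).

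The saline arrays, which share no array with the paraquat ones, gave the same genotype comparison without paraquat. There 364 genes were lower (4.38%) and 165 higher (1.98%). With 1 saline array left out 85 to 842 genes were lower and 23 to 420 higher, the fewest without the first wild-type array and the most without the first transgenic one. After quantile normalisation 697 were lower and 466 higher, and in the fit that dropped the second knock-out paraquat array 955 and 609. The overlaps that follow were not recomputed in these fits. Of the 364, 308 were also lower under paraquat, which is 84.6% of the 364 and 25.8% of the 1192, where 14.3% of all genes were lower. Of the 165, 101 were also higher, which is 61.2% of the 165 and 26.2% of the 386, where 4.64% of all genes were higher. No gene was called in opposite directions. Of the 1192 lower genes 1131 had a negative difference under saline (94.9%), where the median saline difference over all genes was -0.01. Over the 308 shared genes the median was -0.63 under paraquat and -0.56 under saline. Another 837 lower genes were neither raised in the knock-out nor called lower under saline, with medians of -0.48 and -0.27. Across all 8320 genes the saline and paraquat differences correlated with r = 0.76 (Spearman 0.76), a description over genes that are not independent. Some control probe sets stood apart on same-numbered transgenic arrays of both treatments. The 3′ minus 5′ difference of pyruvate carboxylase was 1.82 on the third saline and 1.95 on the third paraquat array. Wild-type arrays had 2.85 to 3.16. The 18S probe set read 7.56 and 7.59 on these arrays, against 8.32 to 9.32 in wild-type. The control DapX read 12.27 and 12.62 on the first transgenic arrays, against 10.74 to 11.34. The part of this in the overlap was not tested.

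**Figure D5:**
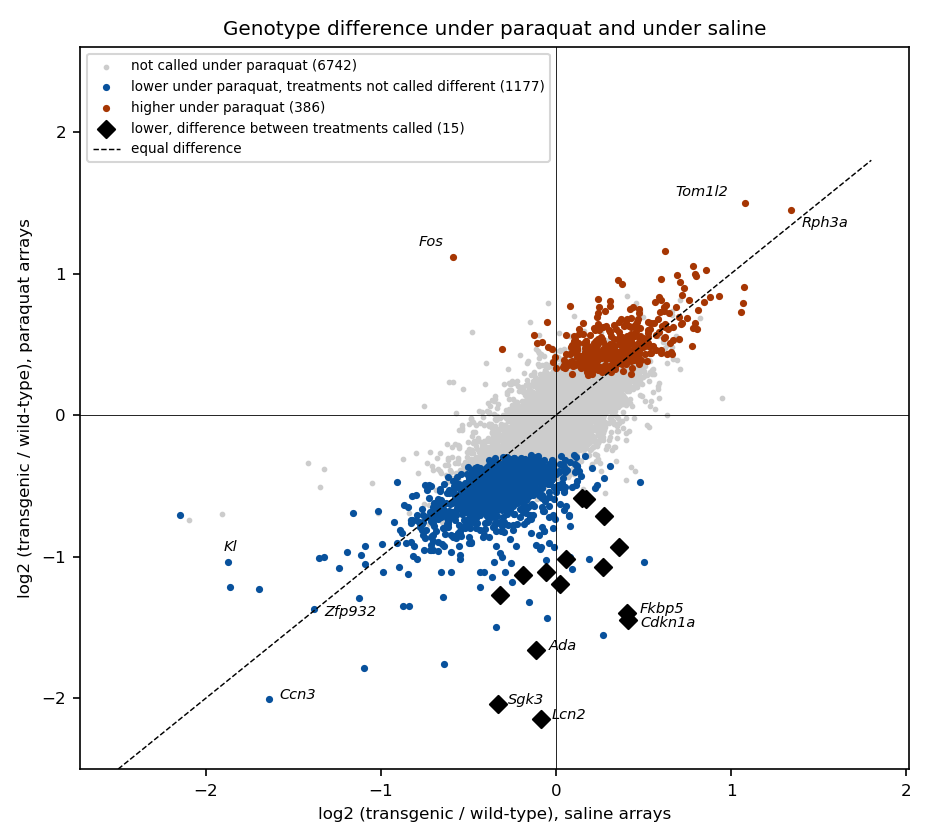
Log2 difference between transgenic and wild-type under paraquat (vertical) and under saline (horizontal), 1 point per gene of 8320, with the dashed line at equal differences. Ccn3, Zfp932 and Rph3a lie near the line, while the 15 diamonds, among them Lcn2, Sgk3, Fkbp5 and Cdkn1a, lie far below it with saline differences between -0.33 and 0.41.

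The difference itself was tested for every gene, as the paraquat minus the saline contrast. It was called for 15 genes (0.18%), all of them more negative under paraquat and all among the 1192 lower genes. In the positive direction 0 were called. Either way, 378 of 8320 genes had an unadjusted p under 0.05, no more than such a threshold passes on average when no gene differs. With any 1 of these 12 arrays left out 4 to 22 genes were called, the fewest without the second wild-type saline array. With the replicate number as a block over all arrays 7 were called, and with the block on the compared arrays alone 10 negative and 1 positive. Of the 15, 13 were among the 49 lower genes raised in the knock-out, which is 26.5% of the 49. The 15 hold 6 of the glucocorticoid list. For Ada, the enzyme that removes adenosine, the values were 6.77, 6.75 and 6.39 on the wild-type arrays and 5.46, 4.90 and 4.58 on the transgenic arrays, and saline arrays read 4.48 to 4.75 in both genotypes. The third transgenic array lay at the saline level and the first and second above it, and the contrast was -1.55 (SE 0.29, adjusted p = 0.0264). As for Lcn2, the low values lay well below the array medians. Ada may have passed the filter on low values only through arrays where it was high. For Sgk3 the contrast was -1.70 (SE 0.24, adjusted p = 0.00283). For Plin4 it was -1.82 (SE 0.59) and not called (adjusted p = 0.507). For Fos it was 1.70 in the other direction, with an adjusted p of 0.0591. For all other lower genes a difference between the treatments was not called, which does not show that they are equal.

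Agreement between probe sets of a gene limits some calls. Of the 1192 lower genes 488 had another probe set that passed the filter on low values. All of these others shared the sign for 331 genes and none did for 85. For the 386 higher genes the numbers were 131, 106 and 13. At least 1 other with the same sign also had an unadjusted limma p under 0.05 for 232 of the 488 and 83 of the 131. Of the 49 lower genes raised in the knock-out 13 had another such probe set, and all 13 agreed in sign. Of the 214 called genes named by rule, 63 lost their call when 1 of the 6 arrays was left out.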

How the data were processed

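Total RNA of the cerebellum was hybridised to 1-colour Affymetrix mouse arrays, 18 in all. The deposited values are log2 intensities per probe set that the authors normalised with RMA, per the submitters' processing notes, in which no version is given. RMA summarises the probes of a set and is meant to bring all arrays close to 1 distribution, so a broad shift of 1 group may be reduced. The deposited arrays still differed in spread. The standard deviation of log2 values was 2.27 to 2.28 on wild-type paraquat arrays and 2.20 to 2.24 on transgenic ones. It was 2.06 on the second knock-out paraquat array. The median difference over all genes, -0.06, was -0.01 after quantile normalisation, 0.002 without the filter on low values and -0.08 with a stricter one. Of 22690 probe sets, 64 control probe sets, 691 with several gene symbols and 1555 with none were left out of the tests, which left 20380. For each of 12393 genes the probe set with the highest mean was kept, and 8320 genes at or above the 40th percentile of all values on at least 3 arrays were tested. All p-values are from limma 3.58.1 in R 4.3.3, fitted on all 18 arrays with 6 group means and 12 residual degrees of freedom and adjusted by Benjamini-Hochberg over the 8320 genes; genes with an adjusted p under 0.05 were called. The median 95% confidence interval of a difference reached 0.269 to either side, and 3 arrays a group limit the precision. Scripts were tested on simulated data. The members and gene lists were chosen with earlier results of these data known, and counts of lists carry no test. Named by rule were Apod, the 20 lower and 12 higher called genes with the largest differences and no overlap, up to 4 called genes of each list and up to 10 genes each way for the difference between treatments; all other genes named were chosen after their values were seen. Alternatives covered normalisation, filter, probe set choice, arrays fitted, array weights, a fold threshold, the replicate number as a block and leaving out arrays, of which the fits without the doubted arrays were chosen after seeing the data.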

Additional observations from a re-analysis of the deposited data

Results flagged for a closer look

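The difference between transgenic and wild-type was tested against itself between treatments, as the paraquat difference minus the saline difference in log2, and limma's test called 15 of 8320 genes, all with negative values. With the replicate number as a block over all arrays 7 were called. For Lcn2 it was -2.06 (adjusted p = 0.00283), for Cdkn1a -1.86 (0.0119), for Fkbp5 -1.81 (0.0264) and for Sgk3 -1.70 (0.00283). These encode an acute phase lipocalin, a cell cycle inhibitor, a regulator of the glucocorticoid receptor and a kinase. For Ada, adenosine deaminase, it was -1.55 (0.0264), for Lrg1, an acute phase glycoprotein, -1.34 (0.0214), and for Nrros, of myeloid cells, -1.29 (0.0264). For Polr3e it was -1.21 (0.00414), for Pnpla2 -1.08 (0.0264), for Cirbp -1.05 (0.0264), for Mertk -0.95 (0.0482) and for Gadd45g -0.94 (0.00414). For Smim3 it was -0.99 (0.0264), for Spns2, a sphingosine-1-phosphate exporter, -0.77 (0.0339), and for Mrnip, of DNA repair, -0.73 (0.0482). Of the 15 only Spns2 and Mrnip were not among the 49 lower genes that paraquat raised in the knock-out. At an unadjusted p under 0.05 were 378 of the 8320 genes, no more than such a threshold passes on average when no gene differs.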

How the results depend on the processing

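Of the 214 called genes named by rule, 87 kept their call under every alternative except the added fold threshold, which 73 missed by its construction, and 127 lost it under at least 1 other. The sign turned only over the mean of a gene's probe sets, for Nr1d2 (0.079), Ptprk (0.0002), Ttyh1 (0.0124) and Top2b (0.0367). Genes lower under paraquat numbered 1944 without the second knock-out paraquat array, 2651 with array weights, 408 with the fold threshold of 1.5, 506 without the second and the third transgenic paraquat arrays and 639 to 997 with arrays left out singly or the third transgenic array of both treatments removed. Genes higher under paraquat numbered 879, 1478, 91, 198 and 177 to 444 in the same order, 832 after quantile normalisation and 807 over all probe sets. With array weights 64.2% of the called genes were lower, after quantile normalisation 60.2%, over all probe sets 63.5% and over the mean of probe sets 64.5%, against 75.5%. Genes lower under saline numbered 955, 2192 and 159 for the first 3 of these settings, 697 after quantile normalisation, 669 after median centring, 194 without the third transgenic array of either treatment and 85 to 842 with 1 array left out. Genes higher under saline numbered 609, 1920 and 55, then 466 and 264, 355 over all probe sets and 23 to 420. The contrast between treatments called 34 in the fit that dropped knock-out paraquat array 2, 687 with array weights, 8 without the third transgenic array of either treatment and 4 to 22 with 1 array left out. Genes raised in the knock-out numbered 34 on the compared arrays alone, 132 after quantile normalisation, 112 after median centring, 1067 with array weights and 34 to 108 with 1 array left out. Over the settings that refitted both comparisons, none of which left out another knock-out array than the second paraquat one, 57.5% to 79.4% of the raised genes were lower in the transgenic, where 7.68% to 31.9% of all genes were. The cause of these shifts was not tested.

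Same-numbered transgenic and wild-type paraquat arrays correlated in their deviations by 0.0825, 0.125 and -0.0233, and the saline ones by 0.322, -0.113 and 0.372, so the replicate number was not taken as a pairing of genotypes. Between treatments the correlations were 0.159, 0.127 and 0.416 in the transgenic, all over 0.1, and 0.0859, 0.148 and 0.335 in wild-type, not all over it. Arrays of unlike number correlated on average by -0.0303 between genotypes under paraquat and -0.0998 under saline. Between treatments these means were -0.115 in the transgenic and -0.0955 in wild-type. A batch shared by replicate number was not tested. With the replicate number as a block over all arrays 1211 genes were lower and 404 higher under paraquat, and the contrast between treatments called 7. With the block on the compared arrays alone the counts were 1400 and 499 under paraquat and 649 and 359 under saline.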
